A study of Mus musculus with 12 samples.

Results

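Poly(A) sites (PASs) whose region label was read as the first or an internal exon are described here. They come from the list of PASs deposited for acute hippocampal mini-slices of mice. Members were all entries with the region label exonI or exon5, taken to mean an internal exon and the first exon, whatever the gene or position. They numbered 853 of the 56204 entries of the list (1.52%), 712 of them exonI and 141 exon5. The list is longer than the set of PASs that the paper reports. The paper's counts per library required minimum read numbers and relative abundances, and which exonic entries pass these was not determined. The study made 4 groups of 3 libraries by 3′READS, which sequences the 3′ ends of transcripts. All were from hippocampus of C57BL/6 mice given as 3 months old. The paper left control sample 3 at 3 hr out of its PAS analysis as an outlier. Whether any listed site comes from that library alone was not determined. Slices received either forskolin followed by forskolin with raised KCl and Ca2+, which induces chemical LTP, or DMSO vehicle (control), and were collected 1 hr or 3 hr later. The dentate gyrus had been trimmed away in all groups, and LTP and control slices came from the same animals. All values below count listed sites or distances between them. Read numbers were not used. The 12 read-count columns of the table bear names that fit no library label, so no replicate error or LTP effect is given for any site. Sums over all 12 columns need no labels but were not taken, so no level or depth is given either. No comparison with the exon3 reads of the same gene was made. A site with a single read weighs as much here as one with many.

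Cleavage and polyadenylation cuts a nascent transcript and adds a poly(A) tail, usually in the last exon, downstream of the stop codon. When it occurs upstream of the last exon, the transcript is truncated and the coding sequence shortened. Upstream sites are best known in introns, where cleavage competes with splicing. A transcript cleaved inside an internal coding exon generally has no in-frame stop codon before its tail, and such transcripts are known substrates of nonstop decay. A-rich stretches within exons are also a known source of false PASs in 3′ end sequencing, which 3′READS was designed to reduce. The sequence around these sites was not used here, since the list is in mm9 coordinates, according to the processing notes of the submitters, and no sequence of that build was used. The polyadenylation signals and A content of the sites were therefore not examined.

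The exonic PASs stood under 617 of the 16627 genes of the list (3.71%). ExonI sites were listed for 512 genes and exon5 sites for 115, and 10 genes had both. For 180 of the 712 exonI entries, the gene listed no exon3 PAS (3′-most exon) on the same strand. A further 9 exonI entries lay at or beyond the last exon3 PAS. Whether these sites lie in an internal exon cannot be told from the list. Of the 617 genes, 497 (80.6%) had a single exonic PAS and 120 had 2 or more. These 120 genes held 356 of the 853 entries (41.7%). Several sites per gene are not particular to the exonic labels, since exon3 had 31279 entries under 15075 genes. At 4 or more exonic PASs there were 29 genes, which held 157 entries (18.4%). Genes were matched by symbol to GENCODE M21, and 549 of the 617 had a match. Protein-coding genes made up 517 of these (94.2%), against 97.1% of the 14987 matched genes of the whole list. The share was 96.5% of 452 matched genes for exonI and 84.5% of 103 for exon5, the latter including 5 antisense, 3 lincRNA and 5 processed-transcript genes.

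**Figure D1:**
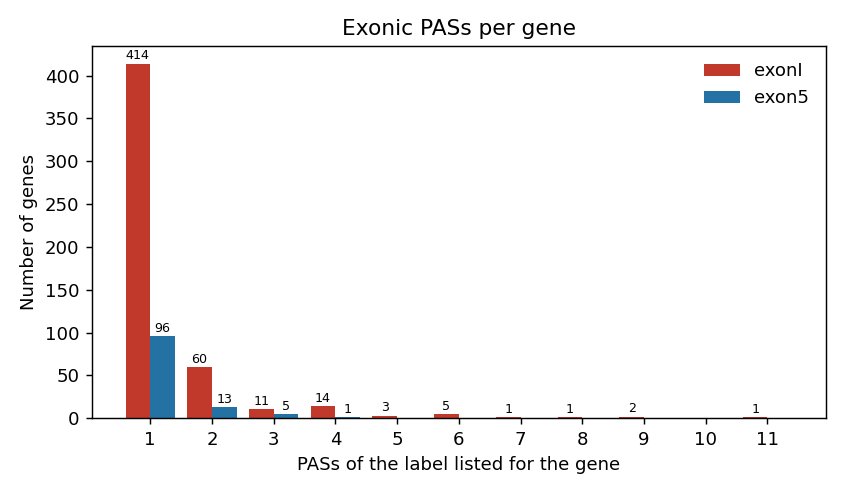
Number of genes (vertical axis) by the number of PASs of 1 label listed for the gene (horizontal axis), with exonI in red and exon5 in blue. A single site was listed in 414 of the 512 exonI genes and in 96 of the 115 exon5 genes, and the exonI genes extend to 11 sites.

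The order of the sites was set beside the region labels. If exon5 marks the first exon, a place at the 5′ end largely follows from the label. The order is therefore no independent test of exon5, nor does it show that exonI marks an internal exon. In genes that also list other PASs, and leaving out upstream antisense (UA) sites, an exon5 entry was the 5′-most PAS in 107 of 108 genes (99.1%), *Kank1* being the exception, and an exonI entry in 196 of 473 (41.4%). All 3995 UA entries have a site identifier antisense to their gene, and UA was taken from its name to mark sites upstream of the gene, at a distance from its start that the list does not give. Exon5 sites lay downstream of the nearest UA PAS of the gene by a median of 1321 nt over 31 entries (25th to 75th percentile 776.5 to 2213.5 nt), and 30 of the 31 lay within 5000 nt. The exon5 PAS of *Kank1* lay 175083 nt downstream and was the fourth PAS of the gene. For exonI, the median was 19368 nt over 217 entries, and 33 lay within 5000 nt (15.2%). If the labels mean first and internal exon, a smaller distance for exon5 than for exonI largely follows from them. Where a UA PAS was listed, exon5 sites lay close to it in nearly all cases and exonI sites mostly did not.

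**Figure D2:**
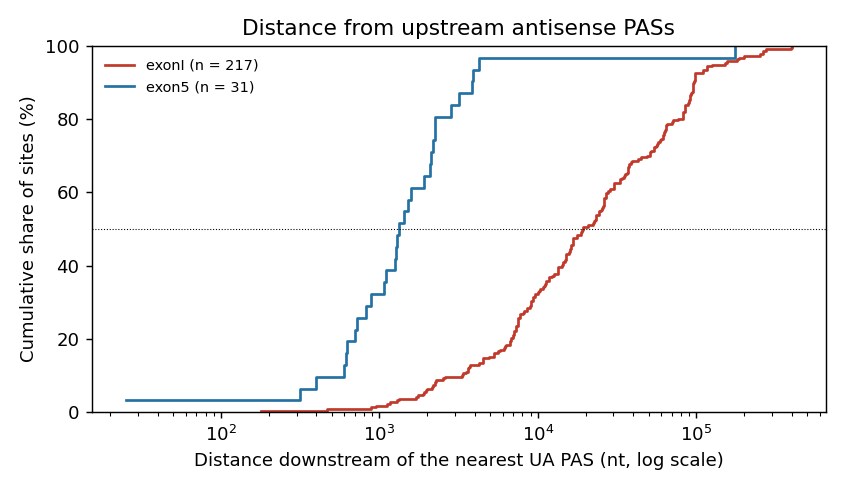
Cumulative share of exonic PASs (vertical axis, percent) by distance downstream of the nearest UA PAS of the same gene (horizontal axis, nt, log scale). The exon5 curve (blue, 31 sites) crosses the dotted 50% line at 1321 nt and the exonI curve (red, 217 sites) at 19368 nt.

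As examples, the exon5 PAS of *Bai1*, an adhesion G protein-coupled receptor, lay 25 nt from it, and that of *Vprbp*, a substrate receptor of a ubiquitin ligase, 399 nt. The exon5 PAS of the cyclin-dependent kinase gene *Cdk12* lay 1420 nt downstream of its UA PAS. *Bcl2*, which encodes an inhibitor of apoptosis, had its exon5 PAS 1910 nt from the UA PAS and 169796 nt upstream of its first exon3 PAS. That of *Irs2*, an adaptor of the insulin receptor, followed at 3827 nt, with another site 74 nt further on, and no exon3 PAS was listed for this gene. These genes were chosen after their values were seen.

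An exon3 PAS, in the 3′-most exon, was also listed for 491 of the 617 genes (79.6%), against 90.7% of all genes of the list. For 207 exonic entries no exon3 PAS of the gene was listed on the same strand, and no distance to exon3 could be taken. In 46 genes, all listed PASs other than UA sites were exonic, and 36 of these had a single PAS. Of the 646 exonic entries in genes with an exon3 PAS on the same strand, 629 (97.4%) lay upstream of the first one, including all 114 exon5 entries. A further 8 lay between the first and the last exon3 PAS, and 9 at or beyond the last.

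Upstream exonI sites lay a median of 7708 nt before the first exon3 PAS in genomic distance, introns included (n = 515, 25th to 75th percentile 2855 to 17597.5 nt, 95% order-statistic interval of the median 6721 to 9029 nt). For exon5 sites the median was 15429.5 nt (n = 114, 5242.5 to 72078.5 nt, interval 10455 to 25360 nt). Composite-exon intronic sites (intron_Comp) lay a median of 20143 nt upstream (n = 11312, interval 19517 to 20852 nt), and skipped-exon intronic sites (intron_Skip) 23102 nt (n = 1522, interval 20711 to 24749 nt). The interval for exonI did not overlap those for the intronic labels, while that for exon5 did. The intervals treat sites as independent, although sites of a gene share its length, and gene length was not adjusted for.

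**Figure D3:**
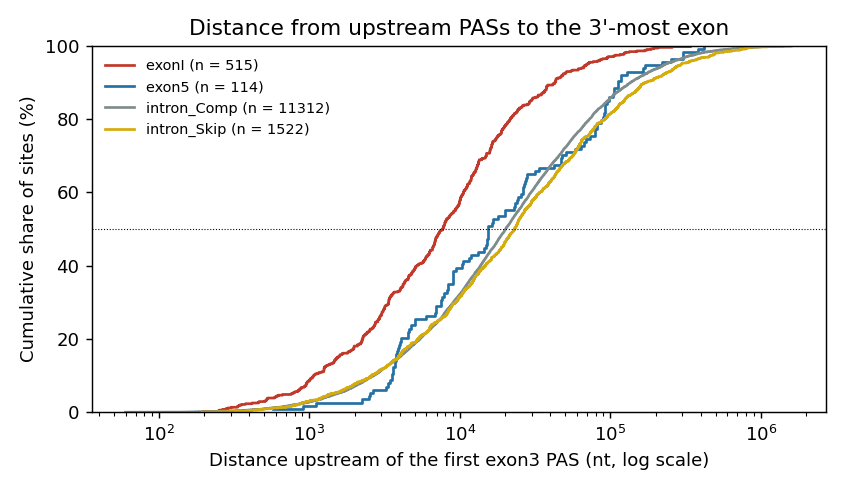
Cumulative share of PASs (vertical axis, percent) by genomic distance upstream of the first exon3 PAS of the gene (horizontal axis, nt, log scale), by region label. The exonI curve (red) lies to the left and crosses the dotted 50% line at 7708 nt, against 20143 nt for intron_Comp (grey).

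The 5 exonI sites nearest to the first exon3 PAS of their gene lay 196 to 278 nt upstream of it. The nearest of all was in *Gltscr2*, a nucleolar protein gene, 196 nt upstream of the first exon3 PAS. It was the last of 5 exonI sites of this gene on chromosome 7, of which the first lay 7114 nt upstream. *Rps18* and *Rps15* encode proteins of the small ribosomal subunit. *Rps18* had 1 exonic PAS, at position 34089188 of chromosome 17 (minus strand), 248 nt before its only exon3 PAS. *Rps15* had 2, at 302 and 265 nt upstream, 37 nt apart, and the latter is among the 5 nearest. The exonI PAS of *Skiv2l*, an RNA helicase of the cytoplasmic exosome pathway, lay 253 nt upstream, and an intron_Comp PAS followed 29 nt downstream of it. In *Spag4*, the nearer of 2 exonI PASs lay 278 nt upstream.

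At the other end, the exonI PAS of *Hydin*, a gene needed for motile cilia, lay 342764 nt upstream of its first exon3 PAS and was the 5′-most PAS of the gene. That of *Gabrg3*, a GABA-A receptor subunit, lay at position 64237995 of chromosome 7 (minus strand), 258236 nt upstream and downstream of 9 intronic PASs. In *Erc1*, a scaffold of the presynaptic active zone, the distance was 207394 nt, with 3 intron_Comp PASs before the exonI PAS and 7 after it. The sites of *Mcph1*, a gene of chromosome condensation and brain size, and of *3110082D06Rik* lay 194862 and 186556 nt upstream, and each was the first PAS listed for its gene. Each of these genes held a single exonic PAS and listed intronic PASs as well.

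The farthest exon5 PAS was that of *Maml3*, a coactivator of Notch signalling, at position 51908558 of chromosome 3 (minus strand). It lay 416248 nt upstream of the first exon3 PAS and 1321 nt downstream of the UA PAS of the gene. *Tmtc2*, which encodes a transmembrane protein of the endoplasmic reticulum, followed at 384821 nt. *Trpc5*, a cation channel of hippocampal neurons, had 2 exon5 PASs at 141122614 and 141122565 of chromosome X, 49 nt apart and 306140 and 306091 nt upstream. In *9530036O11Rik* the distance was 251920 nt, and this site is also listed as a UA PAS of another gene. The nearest exon5 sites were in *Gm4013* at 575 nt, in *Drap1*, a transcriptional corepressor, at 912 nt, in *Etohd2* at 1107 nt, in *4930548H24Rik* at 2241 nt and in *Gm2058* at 2473 nt. The symbol *Gm2058* stands at sites on chromosomes 6 and 7, and the distance is that within chromosome 7.

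Spacing could be taken only in genes with several PASs of 1 label, while 497 of the 617 genes had a single exonic PAS. The lengths of exons and introns, which bound the spacing within them, were not adjusted for. Neighbouring exonI PASs of the same gene lay a median of 336 nt apart (200 pairs, 25th to 75th percentile 74.25 to 1917.5 nt) and neighbouring exon5 PASs 109 nt apart (26 pairs, 58 to 178 nt). The median was 4306.5 nt for intron_Comp and 1112 nt for intron_Skip, and 259 nt for neighbouring exon3 sites of a gene. Runs in which each PAS lay within 100 nt of the next held 104 of the 712 exonI entries, in 44 runs of 38 genes. For exon5 they held 21 of the 141 entries, in 10 runs of 10 genes. Runs were not counted for the other labels. The run with the most sites was in *Wbscr22*, a methyltransferase of ribosomal RNA, with 6 exonI PASs over 229 nt. *Fxr2* had a run of 5 over 208 nt. *Prrc2c* and *Ythdc1*, a nuclear reader of N6-methyladenosine, each had a run of 4, over 120 and 96 nt. How many of the neighbouring entries reflect separate cleavage events cannot be told from positions.

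The 5 genes with the most exonic PASs, by the rule for named genes, were *Prrc2a*, *Fxr2*, *Gcap14*, *Prkcc* and *Asxl3*, and all their exonic sites were exonI. *Prrc2a* (ENSMUSG00000024393.14), a large proline-rich protein gene on the minus strand of chromosome 17, had 11. They extended from 35298320 to 35286869, from 12253 to 802 nt upstream of the first of 2 exon3 PASs, and only 3 intronic PASs, all intron_Comp, were listed for this gene. At 35292973, 35292931 and 35292880, 3 of its sites formed a run of 93 nt. *Prkcc*, which encodes the gamma isoform of protein kinase C found in neurons, had 8 on the plus strand of chromosome 7, from 3314006 to 3330229, or 16555 to 332 nt upstream of the first exon3 PAS. They were interleaved with its intronic PASs, of which 14 lay before the first exonI site.

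*Gcap14* had 9 exonI PASs on the minus strand of chromosome 14, from 37692008 to 37688122, and *Asxl3*, a gene of the Polycomb-associated Asxl family, had 7 on the plus strand of chromosome 18, from 22680976 to 22688516. In both genes the exonI sites followed 2 intron_Comp PASs and no exon3 PAS was listed, so that the 3′-most listed PAS was labelled exonI. *Fxr2* (ENSMUSG00000018765.5), a paralogue of the fragile X protein gene, had 9 on the plus strand of chromosome 11. Of these, 2 lay 1049 and 336 nt upstream of the first of 3 exon3 PASs, and 7 lay downstream of the last of them, from 69464874 to 69466799. The latter made up 7 of the 9 exonic sites beyond the last exon3 PAS in the list. The other 2 were in *Rsrc2*, at 2869 and 4063 nt beyond its only exon3 PAS.

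**Figure D4:**
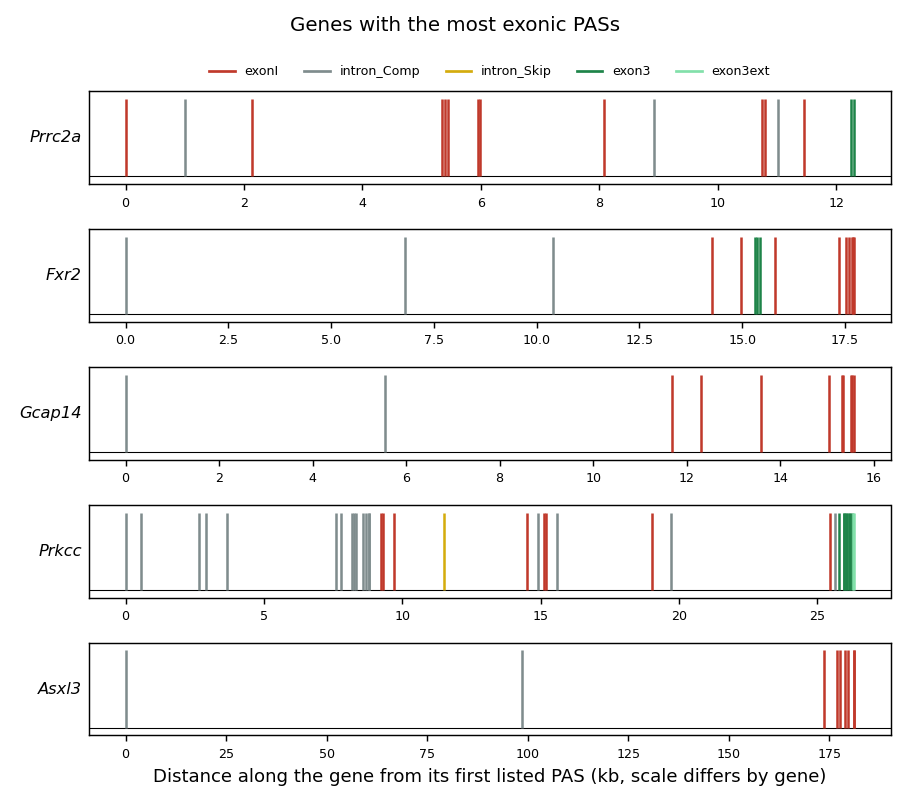
Listed PASs of the 5 genes with the most exonic sites, by distance along the gene from its first listed PAS (kb, with a scale of its own for each gene). Each vertical line is a PAS, coloured by region label, and UA sites are left out. The exonI sites (red) are spread between intronic sites (grey) in *Prkcc*, lie on both sides of the exon3 sites (green) in *Fxr2*, with 7 of 9 beyond them, and stand last in *Gcap14* and *Asxl3*.

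An intronic PAS was listed for 441 of the 617 genes (71.5%), against 5131 of the 16010 genes with no exonic PAS (32.0%). Genes with more listed sites of any kind are more likely to hold both, and this was not adjusted for. The nearest intronic PAS of the gene was a median of 3204 nt away for exonI (n = 545) and 2007 nt for exon5 (n = 91). It lay downstream of the exonic site in all 91 exon5 cases, which follows from the label if exon5 marks the first exon. For exonI it lay upstream in 307 cases and downstream in 238. At 100 nt or less there were 19 pairs, 2.23% of the exonic entries, and within 1000 nt 185 (21.7%). The closest pair was in *BC005624*, at 10 nt. That is less than the distance within which, by the paper's methods, PASs were clustered together, and why both are listed was not examined. In *Hsp90b1*, an endoplasmic reticulum chaperone gene, an intronic PAS lay 30 nt downstream of an exonI PAS, and in *Polr2a*, the gene of the largest subunit of RNA polymerase II, 49 nt downstream.

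Genes in which both labels occurred together included *A630007B06Rik*, *Bai1*, *Efnb3*, *Gap43*, *Kank1*, *Prune*, *Ptn* and *Vprbp*. *Gap43*, a growth cone protein gene on the minus strand of chromosome 16, had 3 exon5 PASs at 42340757, 42340682 and 42340653, and an intron_Comp PAS followed 72 nt after the last. Its 2 exonI PASs, at 42292412 and 42292252, lay 48241 nt further downstream. In *Efnb3*, an ephrin gene, 2 exon5 PASs preceded an exonI PAS by 2242 nt.

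Some exonic PASs were close to sites of another gene. The same share over all entries of the list was not computed, so the shares below cannot be called low or high. Apart from UA sites, a PAS of another gene lay within 1000 nt on the same strand for 18 of the 853 entries (2.11%). These were 11 of 141 exon5 entries (7.80%) and 7 of 712 exonI entries (0.983%). In 9 of the 11 exon5 cases the other site was an exon3 PAS. At 11 of the 18 entries, 6 exon5 and 5 exonI, the position was the very same. A further 3 exon5 entries share their site with a UA PAS of another gene, which makes 14 entries at sites listed under several genes. The exon5 PAS of *Rhot2*, a mitochondrial GTPase gene, is thus also listed as an exon3 PAS of *Wdr90*, and that of *Leng1* as an exon3 PAS of *Tmc4*. The exonI PAS of *Gm5506* is listed as an exon3 PAS of *Eno1*. For sites at the very same position, the list does not tell which of the genes the transcript belongs to.

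Lists of genes taken from known pathways were searched for exonic PASs, which 3.71% of all genes of the list had. Among 21 genes of the cleavage and polyadenylation machinery, 2 had an exonic PAS. *Rbbp6* had an exon5 PAS at 130114435 of chromosome 7, 31634 nt upstream of its exon3 PAS, and the exonI PAS of *Wdr33* lay 910 nt after an intron_Comp PAS. Among 30 splicing factor genes, *Hnrnph1* alone had such a site. Its exonI PAS lay 1263 nt beyond the first of its 4 exon3 PASs and 3090 nt before the second. Of 20 activity-induced genes, *Nr4a2* and *Nr4a3*, nuclear receptors induced by neuronal activity, each had a single exonI PAS, 2730 and 13143 nt upstream of the first exon3 PAS. In both, intron_Comp PASs were listed on either side of it. None was listed for the other 18, *Fos*, *Arc*, *Homer1* and *Bdnf* included. Of the 20 listed genes of glutamate receptors and their scaffolds, *Grin2b*, an NMDA receptor subunit, had an exonI PAS at 135729276 of chromosome 6 (minus strand), 47133 nt upstream of its first exon3 PAS. Of 11 kinase and related genes, *Prkcc* alone had exonic sites. In all, 7 of the 102 genes of these lists found in the table had an exonic PAS (6.86%), against 3.71% of all genes. The lists were made with earlier results known, and these shares were not tested.

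Exonic PASs were listed on every chromosome of the list. Their share of the entries ran from 0.876% on chromosome 15 to 2.30% on chromosome 17, leaving out chromosome Y, where 1 of 22 entries was exonic.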

How the data were processed

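3′READS libraries were made from control and LTP mini-slices at 1 hr and 3 hr, 3 per group. According to the study's methods, reads were mapped with bowtie 2, PASs were identified from reads that began with Ts not found in the genome, and nearby PASs were clustered. The processing notes name Bowtie2 and mm9. The deposited table names, for each PAS, the gene and its strand, the site and its region label, in 1 list for all libraries. A further 12 columns hold read counts. They were not used, since their names match no library, and order or totals were not taken as a guide. Tests between groups were therefore not run.

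Entries labelled exonI or exon5 were selected, and sites and distances along the strand of the gene were counted in Python (3.11.15) using numpy 2.4.6 with pandas 2.3.3. Intervals of medians are 95% binomial order-statistic intervals (scipy 1.17.1), and figures were drawn with matplotlib 3.10.9. The distance and run functions were tested on simulated data. GENCODE M21 (GRCm38) gave identifiers and gene types by symbol, and no coordinates. The members and gene lists were chosen with earlier results of these data known. Named genes are the members of the gene lists, the 5 genes with the most exonic PASs and, for each label, the 5 sites farthest from and nearest to the first exon3 PAS. Others were named after their values were seen. A few results are not reported here.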

Additional observations from a re-analysis of the deposited data

How the results depend on the processing

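The number of exonic entries was 853, and 839 when sites shared by several genes were left out. Counting distinct positions gave 851, and exonI alone 712. By construction, exon5 alone left fewer, 141 entries in 115 genes. The genes numbered 617, against 605 without shared sites and 512 for exonI alone. Measured to the last exon3 PAS, the median distance was 8315 nt for exonI and 15520 nt for exon5, and without shared sites 7713 and 15459 nt, all within the intervals of the reported medians. The share of genes with an intronic PAS was 69.4% for intron_Comp alone and fell to 12.2% for intron_Skip alone, which has fewer sites. No paired analysis was possible because no read-count column could be tied to a library by name. For the same reason the alternatives planned for the tests of LTP against control were not run, namely DESeq2, no filter on low counts, the replicate block and each library left out in turn. Depth limits which sites enter such a list, and it was not analysed.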
